A study of Mus musculus with 415 samples.

Results

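Sox2 and Sox1 were examined as 2 loci in a single-cell ATAC-seq data set, in which Tn5 transposase inserts sequencing adapters into accessible DNA and the recovered fragments mark open chromatin cell by cell. The Sox2 locus was taken as chromosome 3 from 34440000 to 34700000 and the Sox1 locus as chromosome 8 from 12370000 to 12430000, on the mouse build mm9, and every region of the deposited table that overlaps either window was kept. This gave 11 regions of 23180 in all, 5 at Sox2 and 6 at Sox1. The windows were set by position and not by measured values.

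All cells came from R1 mouse embryonic stem cells, which were made into embryoid bodies by 48 hours of hanging-drop culture. Retinoic acid followed for 4 days, at a dose the labels give as 0.5 mM, with the medium renewed daily. They were captured and transposed on a Fluidigm C1 instrument. Every cell had the same treatment and time, no untreated cells were included, and the labels name no separate cultures, so the cells are 1 sample and no p-value is given. Exact 95% intervals cover the counting of cells only.

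Sox2 and Sox1 are close relatives in the SoxB group of transcription factors, which bind DNA through an HMG box. Sox2 works with Oct4 in the pluripotent cells of the early embryo and is then kept in neural progenitors, while Sox1 is switched on when ectoderm becomes neural and is widely used as an early marker of that step. In embryonic stem cells, Sox2 depends on an enhancer region about 100 kb downstream of the gene, whereas other enhancers closer to the gene serve it in neural tissue. Retinoic acid is commonly used to steer embryoid bodies towards neural and other fates. RNA of the 2 genes was not analysed here.

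The promoters are shown because the region with the most open cells at Sox2 held the gene position, and the sequences show what kind of promoter each gene has. They are the 250 bases before the annotated start, from RefSeq on GRCm38.p6, both on the plus strand, at chr3:34649745-34649994 for Sox2 and chr8:12395269-12395518 for Sox1. These coordinates belong to another build than the regions below and cannot be set against them. Capitals mark the matches to the motifs searched on both strands, which were the TATA box TATAAA, the CCAAT box, the GC box GGGCGG, and the HMG-box motifs ACAAAG and ACAAT.
Sox2 promoter: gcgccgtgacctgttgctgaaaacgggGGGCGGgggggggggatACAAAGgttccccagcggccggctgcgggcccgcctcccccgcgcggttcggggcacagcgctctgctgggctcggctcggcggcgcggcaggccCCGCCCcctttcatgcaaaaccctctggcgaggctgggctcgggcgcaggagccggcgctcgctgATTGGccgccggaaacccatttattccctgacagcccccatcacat
Sox1 promoter: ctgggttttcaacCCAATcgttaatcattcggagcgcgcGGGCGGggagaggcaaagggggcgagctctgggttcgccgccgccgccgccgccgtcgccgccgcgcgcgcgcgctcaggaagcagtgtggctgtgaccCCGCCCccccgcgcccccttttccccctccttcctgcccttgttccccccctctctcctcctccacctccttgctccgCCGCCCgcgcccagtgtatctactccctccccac
Both are rich in G and C. The Sox2 sequence was 72% G and C with 27 CG dinucleotides, and the Sox1 sequence was 71.2% with 29, where the median over 32851 promoters was 52.4% and 6. Neither held TATAAA, which 12.4% of all promoters held. Each held CCAAT once, as did 33.8% of promoters at least once. GGGCGG occurred 2 times before Sox2 and 3 times before Sox1, against 32.7% of promoters with at least 1 match. ACAAAG occurred once before Sox2 and not before Sox1, and 16.5% of promoters held it. ACAAT, which 27.7% of promoters held, was in neither. None of these matches was tested as a binding site, and ACAAT and CCAAT differ only in their first letter.

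Each cell of this data set was sampled sparsely. A cell had between 756 and 12267 open regions with a median of 3928, where open means any signal above 0, and between 791 and 25069 fragments, taken as the signal divided by the aligned bases of a whole read pair. The median region of the whole table was open in 14.5% of cells and was 762 bp wide. Each region of the table was open in at least 31 cells, or 7.47%. A closed value in a shallow cell may thus be a region that was not sampled, so levels were set beside those expected from each cell's depth and each region's frequency.

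At Sox2, a single region stood well above the rest. The region from 34548365 to 34549964, which is 1599 bp wide and holds the gene position of about 34549000, was open in 28.2% of cells (exact interval 23.9% to 32.8%). Of all regions in the table, 82.6% were open in fewer cells. In its open cells the signal ran from 0.203 to 3.93 fragments with a median of 1, and 27 cells (23.1% of the open ones) had more than 1 fragment. The share depends on how deeply cells are read. It was 6.51% when more than 1 fragment was required and 8.90% when each cell was thinned to 1500 open regions.

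Downstream of the gene lay 3 narrow regions close together, centred 14.2, 16.6 and 17.9 kb from the gene position. The first, from 34562977 to 34563411, had signal in 41 cells (9.88%, interval 7.18% to 13.2%). The second, from 34565252 to 34565887, was open in 36 cells (8.67%, 6.15% to 11.8%). The third, from 34566826 to 34567073, was open in 39 cells (9.40%, 6.77% to 12.6%). These intervals overlap one another, so the 3 regions are not ordered, and all lie below that of the gene region. Upstream, the region from 34457871 to 34458289, 90.9 kb away, was open in 34 cells (8.19%, 5.74% to 11.3%). Per length the picture differed, because the region at 17.9 kb is the narrowest of the 5. Summed over all cells it held 147.4 fragments per kb, against 82.4 for the gene region, 71.3 and 48.4 for its 2 downstream neighbours and 75.6 for the upstream region, with 94.7 for the median region of the table. A fragment that touches a narrow region adds only its overlapping bases, and 22 of the 39 open cells at 17.9 kb held less than 1 fragment.

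No region of the table lay 80 to 140 kb downstream of the Sox2 gene position, the distance at which the embryonic stem cell enhancer is known. After the end of the region at 17.9 kb, the next region on the chromosome began at 34983412, a gap of 416.3 kb. Between neighbouring regions of the table the median gap was 40.7 kb, and 95.2% of 23160 gaps were shorter. The gap upstream of the first Sox2 region was 76.6 kb, longer than 68.4% of gaps. How the regions of the table were chosen is not given in the sources used here, so accessibility inside the gap was not measured and a lower limit for it cannot be stated. The share of cells at a distal Sox2 region, and its opening together with the gene region, could therefore not be computed.

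**Figure D1:**
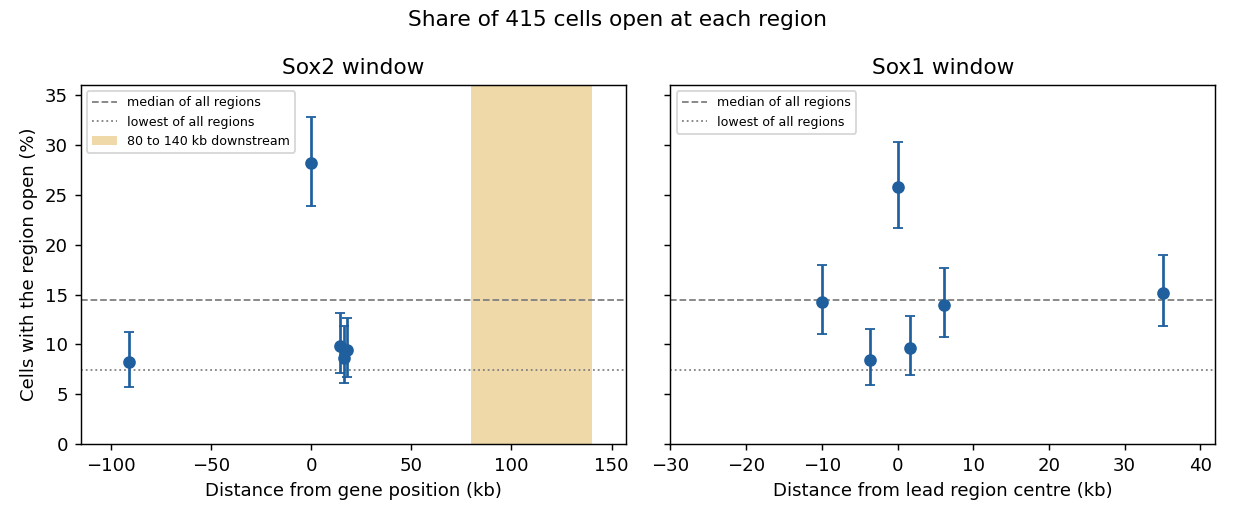
Share of cells (%, vertical axis) with each region open against its distance in kb (horizontal axis) from the Sox2 gene position (left) or from the centre of the Sox1 region open in most cells (right). Points are regions, bars are exact 95% intervals, the dashed line is the median of all regions (14.5%), the dotted line the lowest (7.47%), and the shaded band, 80 to 140 kb downstream of Sox2, holds no region. In both windows the region at distance 0, at 28.2% and 25.8%, lies above all the others, which at Sox1 follows from the choice of reference point.

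Sox1 had more regions in a shorter stretch. Its region open in most cells, from 12395096 to 12395843, was 747 bp wide and open in 25.8% of cells (exact interval 21.6% to 30.3%), more than 78.6% of all regions. Signal in the open cells ran from 0.459 to 3.72 fragments with a median of 1, and 28 cells (26.2% of the open ones) had more than 1 fragment. Its interval overlaps that of the Sox2 gene region, so the 2 leading regions were not told apart by share. Per length it held 162.04 fragments per kb over all cells. With more than 1 fragment required the share was 6.75%, and after thinning it was 8.12%. The position of the Sox1 gene on mm9 is not in the sources used here, so distances at Sox1 are from the centre of this region.

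The other 5 Sox1 regions were open in 8.43% to 15.2% of cells. The region from 12429996 to 12431159, which begins at the very edge of the window and is centred 35.1 kb away, had signal in 63 cells (15.2%, interval 11.9% to 19%). The 2 wide regions on either side of the leading one came next. That from 12384686 to 12386320, 10 kb upstream and 1634 bp wide, was open in 59 cells (14.2%, 11% to 18%), and that from 12400895 to 12402328, 6.1 kb downstream and 1433 bp wide, in 58 cells (13.98%, 10.8% to 17.7%). These 3 shares do not differ beyond their intervals and sit near the table's median of 14.5%. Although wider than the leading region, they held only 38.9 and 43.7 fragments per kb on either side of it, and 60.8 at 35.1 kb. The narrow regions from 12396826 to 12397270, 1.6 kb downstream, and from 12391653 to 12391867, 3.7 kb upstream, were open in 40 cells (9.64%, 6.98% to 12.9%) and 35 cells (8.43%, 5.94% to 11.5%). Sox1 thus had 4 further regions centred within 10 kb of its leading region, the farthest at 9.97 kb. Within 10 kb of the Sox2 gene position the gene region stood alone. The 2 counts have unlike reference points, a region chosen for its open cells and a gene position.

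The share at both leading regions was higher in deeper cells, as the division by open regions itself favours. With the cells divided by their number of open regions into 4 depth groups of nearly equal size, the Sox2 gene region was open in 14.4% of the shallowest group (median 1770.5 open regions), then in 19.2% and 29.8%, and in 49.5% (interval 39.5% to 59.5%) of the deepest (median 6865). The Sox1 leading region was open in 8.65%, 22.1%, 25% and 47.6% (37.6% to 57.6%) of the same groups. The expected number of open cells lay inside the counting interval in all 4 groups for both regions, so their rise was no steeper than that of regions of like frequency within that error. The 3 downstream Sox2 regions were open in 17.5% to 24.3% of the deepest group. There the region at 16.6 kb was open in 25 cells where 16.8 were expected, which is 1.49 times as many (Poisson interval 0.964 to 2.20).

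The Sox2 gene region also differed between title numbers, whose meaning the labels do not give. In 4 consecutive sets of title numbers it was open in 24%, 18.3% (interval 11.4% to 27.1%), 36.5% (27.3% to 46.6%) and 34% of cells, or 0.893, 0.648, 1.25 and 1.19 times the number expected from depth. The intervals of the second and the third share do not overlap, but those of the ratios to expectation do (0.390 to 1.01 and 0.886 to 1.72). At the Sox1 leading region the 4 shares were 20.2%, 28.8%, 28.8% and 25.2%, with overlapping intervals. Cluster 3 of the groups of cells described next made up 38.5% of each of the first 2 sets and 14.4% and 14.6% of the others, and its part in the Sox2 shares was not tested.

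**Figure D2:**
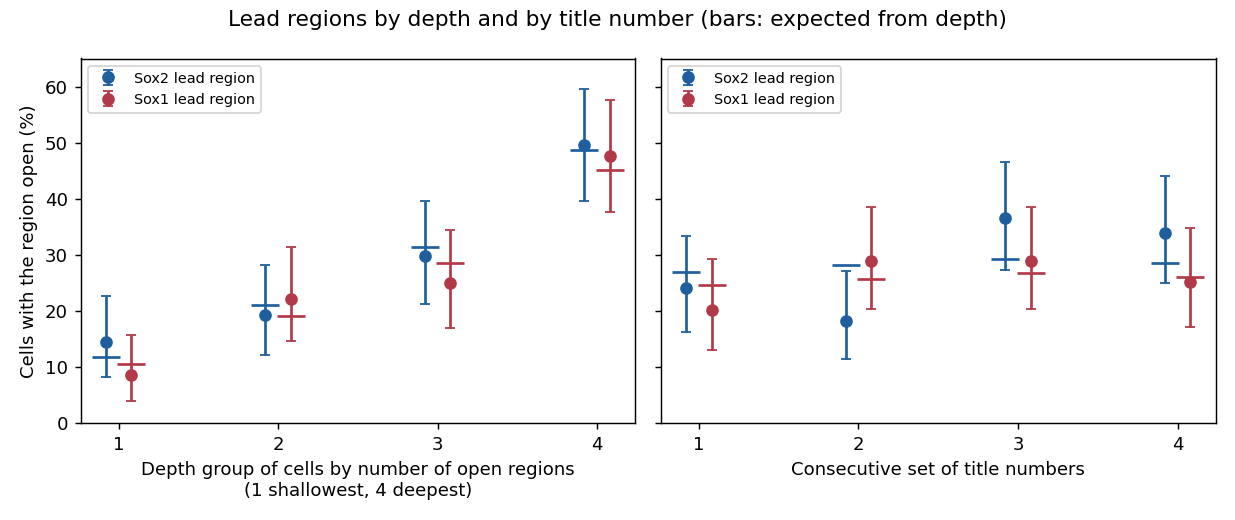
Share of cells (%, vertical axis) open at the leading Sox2 and Sox1 regions by depth group (left) and by consecutive set of title numbers (right). Points have exact 95% intervals and short horizontal bars show the share expected from depth. Both regions climb to 49.5% and 47.6% in the deepest group, and the Sox2 share is 18.3% in the second and 36.5% in the third set of title numbers.

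To ask whether the loci differ between kinds of cells, the cells (1 left out for few fragments) were divided into 3 groups from regions on the other autosomes, so that no region of chromosomes 3 and 8 took part. Clusters 1, 2 and 3 held 46.6%, 26.8% and 26.6% of them, with medians of 3628, 4778 and 3699.5 open regions. The clusters carry no cell type names, because the table names no genes. A call of higher or lower in a cluster needed at least a 2-fold difference in share from the remaining cells and exact intervals free of overlap, either on shares as observed or on shares divided by those expected from depth. The 2468 regions on chromosomes 3 and 8 serve as background.

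The Sox2 gene region was open in cells of all 3 clusters and was not called higher or lower in any of them. It was open in 29.5% of cluster 1, 31.5% of cluster 2 and 22.7% of cluster 3. Relative to depth these are 1.15 (counting interval 0.869 to 1.49), 0.933 (0.650 to 1.30) and 0.840 (0.544 to 1.24) times the expected number, so a difference between clusters was not detectable with this number of cells. The Sox1 leading region was open in 26.4%, 34.2% and 16.4% of clusters 1, 2 and 3. Its ratios to expectation were 1.12 (0.837 to 1.48), 1.1 (0.780 to 1.51) and 0.663 (0.393 to 1.05), again with overlapping intervals.

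Of the 4 regions away from the Sox2 gene, 3 had more open cells in cluster 2 than in the other clusters together. The region at 16.6 kb downstream was open in 25 cells of cluster 2, or 22.5% (interval 15.1% to 31.4%), and in 11 other cells, or 3.63% (1.83% to 6.40%). At 17.9 kb the shares were 19.8% (12.9% to 28.5%) and 5.61% (3.30% to 8.83%), and 90.9 kb upstream they were 18% (11.4% to 26.4%) and 4.62% (2.55% to 7.63%). These 3 regions had 11, 17 and 14 open cells outside cluster 2, where the lowest total of any region in the table was 31. They thus reach that lowest total only with their open cells in cluster 2, which favours a pattern of this kind. The region at 14.2 kb was at 13.5% and 8.58%, with overlapping intervals. At Sox1, the region at 35.1 kb was open in 33.3% of cluster 2 (24.7% to 42.9%) and in 8.58% of the other cells (5.68% to 12.3%). It had 26 open cells outside cluster 2, also under the lowest total of 31, so the same limit holds for it. These 4 of the 11 regions were called higher in cluster 2, both on observed shares, where 13.4% of all regions on the 2 chromosomes were called, and after scaling by depth, where 8.43% were. The background holds regions of all frequencies, not only those near the lowest total. Against a background of this size, and with the 11 regions sharing 2 loci and the same cells, the count is given as a description.

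Depth differed along with this pattern, since cluster 2 was the deepest. Summed over the 3 downstream Sox2 regions, cluster 2 held 62 open values where 38.5 were expected, a ratio of 1.61 (counting interval 1.23 to 2.06, with the regions of a cell counted separately). The regions at 16.6 and 17.9 kb gave 25 and 22 of these values, where 11.97 and 12.95 were expected. The region at 14.2 kb gave 15 where 13.6 were expected, with a ratio interval of 0.617 to 1.82 that holds 1. The summed ratio thus rests mostly on the 2 downstream regions already called higher, and the split by depth uses the same 3 regions. Within the deepest of the 4 depth groups the ratio in cluster 2 was 1.48 (1.04 to 2.04), against 0.974 (0.586 to 1.52) in cluster 1 and 1.16 (0.579 to 2.07) in cluster 3. The intervals of the 3 clusters overlap there. In the other 3 groups it was 1.84 (1.19 to 2.72) in cluster 2, 0.585 (0.341 to 0.937) in cluster 1 and 0.362 (0.145 to 0.745) in cluster 3. The ratio in cluster 2 was above 1 at both depths, which the lowest total of the table favours. The part of depth in this pattern was not tested. With only 2 clusters made, the group that holds most of clusters 1 and 2 had a ratio of 1.12.

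In cluster 1, calls of lower came to the background share once depth was scaled. On observed shares, 3 of the 11 regions were called lower there, where 13.2% of the background was, namely those 90.9 kb upstream and 16.6 kb downstream of Sox2 and that 35.1 kb from Sox1. All 3 are among the regions called higher in cluster 2, whose cells are part of the remaining cells here, so these calls are not a separate pattern. After scaling by depth only the region at 16.6 kb was called, with 7 open cells (3.63%), where 9.6% of the background was. That is 1 of 11 regions, and nothing is read from it. At 1.6 kb downstream of the leading Sox1 region, cluster 1 had 23 open cells and a ratio to expectation of 1.37 (0.870 to 2.06).

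In cluster 3, all 11 regions had fewer open cells than expected from depth, with ratios from 0.447 to 0.882. This held for 56.8% of the background regions, whose median ratio was 0.934. None of the 11 was called higher or lower in cluster 3 after scaling by depth, where 10.8% and 11.6% of the background were. Summed over its 6 regions, Sox1 held 54 open values in cluster 3 where 90.8 were expected, a ratio of 0.595 (0.447 to 0.776), beside 1.04 (0.881 to 1.21) in cluster 1 and 1.26 (1.07 to 1.48) in cluster 2. For Sox2 the 3 ratios were 0.746 (0.554 to 0.983), 0.889 (0.723 to 1.08) and 1.34 (1.11 to 1.60). The sums for cluster 2 include the regions already called higher there. Without the region at 35.1 kb, the Sox1 ratio in cluster 2 was 1.15 (0.951 to 1.39). The Sox2 gene region alone was at 0.933 (0.650 to 1.30) in that cluster. Between 16.8% and 28.7% of background regions had a lower ratio in cluster 3 than the single Sox1 regions did, so low values like these were common there. In the deepest depth group, which holds only 19 cells of cluster 3, the Sox1 ratio was 0.796 (0.505 to 1.19), and in the other cells 0.501 (0.340 to 0.711).

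**Figure D3:**
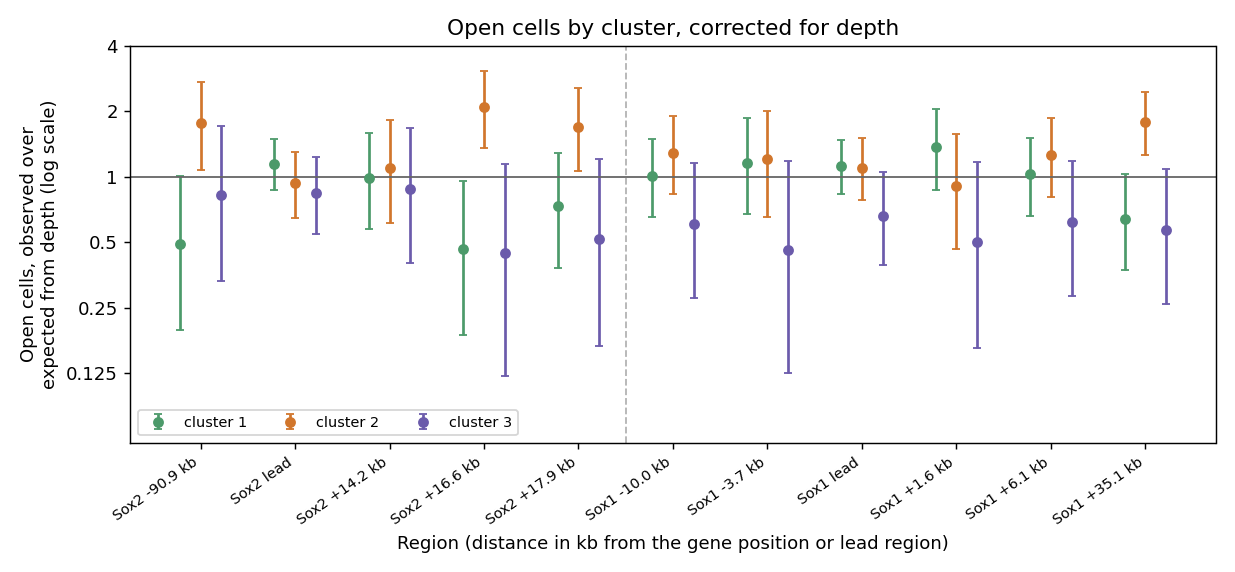
Observed over expected number of open cells (vertical axis, log scale) for each of the 11 regions (horizontal axis, named by distance) in clusters 1, 2 and 3, with exact Poisson 95% intervals; 1 means as many open cells as depth predicts. Cluster 2 stands highest at the Sox2 regions 90.9 kb upstream and 16.6 and 17.9 kb downstream and at the Sox1 region 35.1 kb away, while all 11 points of cluster 3 lie below 1 and the points of the Sox2 gene region lie between 0.840 and 1.15.

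The leading regions of Sox2 and Sox1 were open in the same cells about as often as depth predicts. Both were open in 43 cells, or 10.4%, where 38.8 were expected, a ratio of 1.11 (0.803 to 1.49). The Sox1 region was open in 36.8% of cells with the Sox2 region open and in 21.5% of the rest, but these cells differ in depth, with medians of 5361 and 3469.5 open regions. In the deepest depth group, 28 cells had both open and 23.7 were expected, a ratio of 1.18 (0.786 to 1.71), and 31 had neither where 30.01 were expected. With any region of a locus counted, both loci were open in 28.4% of cells, which is 0.922 times the expected number (0.763 to 1.104). No region of either locus was open in 30.8% of cells.

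Within a locus, opening together was weak and uneven. At Sox2, 6 of 10 pairs of regions were open together in more cells than expected, with ratios from 0.601 to 2.0 and a median of 1.07. The gene region and the region at 17.9 kb were both open in 22 cells where 14.6 were expected (1.5, counting interval 0.942 to 2.27). This ratio was 0.836 when more than 1 fragment was required, but only 27 and 9 cells then had the 2 regions open, too few to read a change from. With those at 14.2 and 16.6 kb the gene region gave 1.11 and 1.03. The 3 downstream neighbours, within 4 kb of each other, were together open in 3 or 4 cells a pair where 4.76 to 5.40 were expected. Their ratios were 0.601 (0.124 to 1.76), 0.741 (0.202 to 1.90) and 0.841 (0.229 to 2.15), and each interval holds 1. At Sox1, 10 of 15 pairs were above 1, with a median of 1.23. The region 3.7 kb upstream was open together with that 10 kb upstream in 12 cells where 6.91 were expected (1.74, 0.897 to 3.03). The region at 6.1 kb downstream was open together with that 3.7 kb upstream in 15 cells where 6.80 were expected (2.21, 1.24 to 3.64), with that at 35.1 kb in 20 where 12 were expected (1.66, 1.02 to 2.57), and with the leading region in 28 where 19.9 were expected (1.41, 0.937 to 2.04). Of these 4 intervals, those of the region at 6.1 kb with its neighbours 3.7 kb upstream and at 35.1 kb lie above 1, and the 4 pairs were singled out among 25 after their values were seen.

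As a correlation over cells of values corrected for depth, pairs of the 11 regions under 10 kb apart had a mean of 0.00639 over 11 pairs, where 4239 such pairs of the whole table had 0.0359. At 10 to 50 kb the mean was 0.0150 over 10 pairs, against 0.0229 over the table. At 50 to 200 kb, where all 4 pairs join the upstream Sox2 region to the others, it was 0.0367 against 0.0149. The 30 pairs between Sox2 and Sox1 regions had a mean of 0.00568, against 0.000452 over all pairs between the 2 chromosomes. Pairs share cells and regions, and correlations this weak in sparse data rank nothing.

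**Figure D4:**
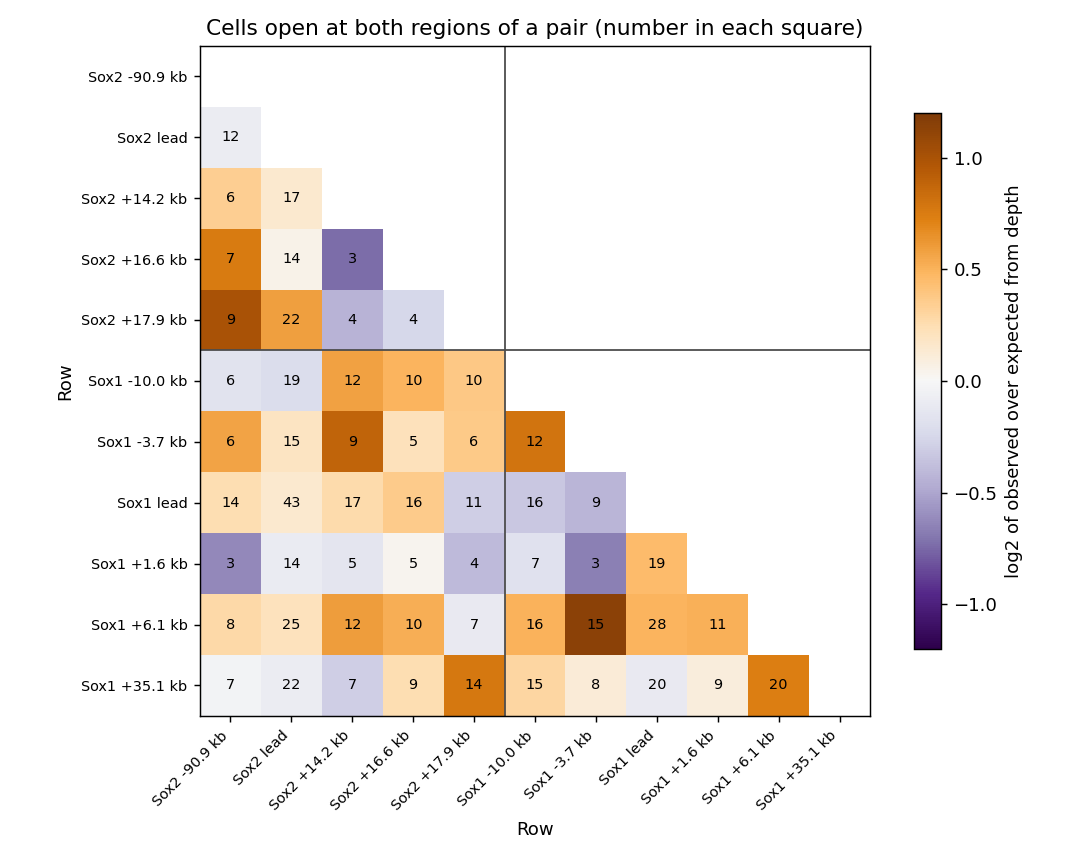
Number of cells open at both regions of each pair (printed in the squares), coloured by the log2 of observed over expected number, with Sox2 and Sox1 regions on both axes and lines between the loci. The square of both leading regions holds 43 cells and is pale, and the darkest Sox1 square joins the regions 3.7 kb upstream and 6.1 kb downstream, with 15 cells.

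The regions most like the leading ones over all cells were sought among 20712 regions on chromosomes other than 3 and 8, by the correlation of values corrected for depth. For Sox2 the highest were on chromosome 9 from 21793207 to 21794535 (0.206), chromosome 10 from 12272150 to 12273071 (0.203), chromosome 19 from 47939933 to 47940402 (0.198), chromosome 15 from 41443050 to 41444193 (0.190) and chromosome 1 from 69836969 to 69837688 (0.186). The first was open in 31 cells together with the Sox2 region where 18.7 were expected. Their ratios to expectation in cluster 3 ran from 0.271 to 1.44, on both sides of 1. For Sox1 the highest were on chromosome 1 from 12994962 to 12995630 (0.228), chromosome 17 from 10669835 to 10670322 (0.213), chromosome 10 from 50482861 to 50483720 (0.207), chromosome 14 from 55050269 to 55051143 (0.197) and chromosome 12 from 78673615 to 78674333 (0.195). The first was open together with the Sox1 region in 26 cells where 14.2 were expected. All 5 had fewer open cells than expected in cluster 3, from 0.187 to 0.714 of the expected number, as the Sox1 region itself did at 0.663. The 5 were chosen for likeness over the same cells, which favours a like cluster pattern. The regions of both lists also lie on chromosomes from which the clusters were made, so their cluster ratios are partly built in. Of the regions on chromosomes 3 and 8, which took no part in making the clusters, 56.8% were below 1 in cluster 3 too. The 2 lists share no region. These are the largest of many weak correlations, of which the highest 1% began at 0.122 for Sox2 and 0.126 for Sox1.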

How the data were processed

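The deposited table holds whole-number signal for 23180 regions in 415 cells. Of the values above 0, 37.6% equal 148, which was read from the values as the aligned bases of a pair of 74-base reads. The submitters' processing notes name mm9 and MACS2. Not given in the sources used here: the aligner, the treatment of duplicates, the counting and the choice of regions. Signal was not scaled between cells. Cells had 791 to 25069 fragments.

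Open means signal above 0. The expected probability of open was 1 − exp(−region rate × cell rate), fitted to the observed totals of regions and cells. The fitting was tried on data simulated from the same formula, which checks the calculation and not how well the formula describes these cells. Shares have exact Clopper-Pearson intervals and numbers of open values exact Poisson intervals, at 95%. Clusters were made from autosomes other than 3 and 8 in cells of at least 1000 fragments (TF-IDF scaled by 10000, SVD components 2 to 10, k-means with 50 starts), with Python 3.11.15, numpy 2.4.6, scipy 1.17.1 and scikit-learn 1.9.0. The number of 3 clusters follows what the study is known to have used. No test across replicates was possible.

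Named regions are all 11 of the 2 windows, and the 5 regions elsewhere most correlated with each leading region. The members and lists were chosen with earlier results of these data known. Promoters of both genes matched the RefSeq table by symbol. Other Sox genes and cell type markers had been listed for use with an mm9 annotation and were not analysed here, nor were protein sequences.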

Additional observations from a re-analysis of the deposited data

How the results depend on the processing

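Shares of open cells moved with the definition of open and with depth. The Sox2 gene region was open in 28.2% of cells, in 6.51% when more than 1 fragment was required, in 39.4% of the deeper cells, those with at least the median depth, and in 8.90% of cells thinned to 1500 open regions. The Sox1 leading region was at 25.8%, and at 6.75%, 36.1% and 8.12% under the same settings. The opening of both together kept a ratio to expectation between 0.833 and 1.45 in all 8 alternatives, within its counting interval. The ratio of the downstream Sox2 regions in cluster 2 was 1.61, and it was 1.23 with more than 1 fragment required, 1.12 with 2 clusters and 1.21 with the first component kept. In these 3, the group nearest to cluster 2 shared 0.495, 0.364 and 0.343 of the cells in either. The ratio of the Sox1 regions in cluster 3 was 0.595, and 0.434 after thinning; without each set of title numbers it ran from 0.541 to 0.677, the Sox2 ratio from 1.49 to 1.70, and the 2 shares from 25.4% to 31.5% and from 24.8% to 27.7%. Leaving out sets for the cluster ratios, and the pair of the Sox2 gene region with that at 17.9 kb, were chosen after seeing the data. That pair had a ratio of 1.5, and 0.836 with more than 1 fragment required, where only 27 and 9 cells had its 2 regions open. The cause of these changes was not tested. Of 40 alternatives of the main results, 30 lay within the counting interval, and no ratio whose interval excluded 1 crossed it. The alternatives for a distal Sox2 region were not run, since the table holds none at that distance. Few open cells per region limit every ratio here. No paired analysis was possible because all cells belong to 1 group.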
